A study of Rattus norvegicus with 12 samples.

Results

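The orbitofrontal cortex (OFC) circRNAs of drug-free rats that had a jugular catheter and worked for saline were compared with those of naive rats that had neither surgery nor infusions. The members were the 6 arrays labelled saline (3) and naive (3) of 12 in the series, 1 male Sprague Dawley rat per array, with rats aged 8 weeks on arrival. Saline rats were catheterized after 1 week in the facility, recovered for 1 week and then self-administered saline in 10 daily sessions of 6 h. Naive rats had no surgery, were handled briefly and sat in the chamber for 2 h a day in 10 daily sessions with nothing to earn. Per the study's methods, catheterized rats were also housed alone, were food restricted during self-administration and had their catheters flushed every day with heparinized saline, so surgery, anticoagulant, session length and lever access differed together between the groups. The methods give pair housing and free access to food as the general conditions, and name no exception for naive rats. Tissue was taken right after the last session in every group. The remaining 6 arrays came from 3 heroin rats, catheterized like the saline rats, and 3 sucrose rats, without surgery like the naive rats; they entered the fit to estimate the spread and are shown for reference.

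The groups also lay on different slides. All 3 saline arrays were on slide 1, with the 3 heroin arrays, sucrose 1 and sucrose 2, and all 3 naive arrays were on slide 2, with sucrose 3. Slide, scan and group therefore cannot be told apart in any value below, no saline-naive difference could be formed within a slide, and the arrays of both slides are given wherever they bear on a result.

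A circRNA is a closed loop made when a downstream splice donor joins an upstream acceptor, a joint called the backsplice junction. Loops have no free ends, so they resist RNase R, an exonuclease that digests linear RNA, and they accumulate in neurons, where many come from genes of synapses and membrane traffic. The OFC is the frontal area that tracks the value of expected outcomes. Here RNA from tissue punches was digested with RNase R, labelled with Cy3 and hybridized to an array whose circRNA probes are each meant for 1 junction. In such bulk tissue, fewer cells of a type and less circRNA per cell cannot be told apart.

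Positions and probe sequences, and for 70 of them a host gene, were at hand for 75 of these circRNAs, all among those the study listed as differing between heroin and saline. The following 60-base probes, copied from that list, belong to the circRNAs of Exoc6, Map4k5 and Slit1, on which results below turn, and to a pair from Rtn4, and capitals mark the longest stretch shared by 2 probes whose circRNAs have a splice boundary in common.
Exoc6, rno_circRNA_001190: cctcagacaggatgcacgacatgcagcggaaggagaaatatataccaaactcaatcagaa
Exoc6, rno_circRNA_001183: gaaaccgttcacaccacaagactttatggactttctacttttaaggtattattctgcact
Map4k5, rno_circRNA_013530: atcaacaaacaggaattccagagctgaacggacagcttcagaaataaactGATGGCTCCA
Map4k5, rno_circRNA_013531: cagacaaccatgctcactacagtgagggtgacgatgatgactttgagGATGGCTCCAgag
Rtn4, rno_circRNA_004644: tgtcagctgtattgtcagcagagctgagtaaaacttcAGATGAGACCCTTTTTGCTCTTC
Rtn4, mmu_circRNA_23123: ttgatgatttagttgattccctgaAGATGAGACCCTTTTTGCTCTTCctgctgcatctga
Slit1, rno_circRNA_001230: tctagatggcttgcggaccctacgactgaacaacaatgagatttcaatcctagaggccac
The Map4k5 probes shared 10 bases and the Rtn4 probes shared 23, so the probes of these pairs overlap in part while the remainder tells the junctions apart. The Exoc6 circRNAs have no splice boundary in common.

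Between the saline and naive groups, many circRNAs differed modestly and none passed correction for multiple testing. A total of 13979 circRNAs, each with a signal called well above background on 3 or more of the 12 arrays, were tested. Of these, 0 (0.00%) had an adjusted p below 0.05 (limma with Benjamini-Hochberg adjustment, smallest adjusted p = 0.0714, reached by 16 circRNAs). At an unadjusted p below 0.05 there were 2348 (16.8%). The methods' t-test left 1 after the same adjustment (ASCRPR001050). The count at an adjusted p below 0.05 depended on the signal used and on weighting: limma gave 14 with the deposited log2 values, 23 with the median spot signal without background subtraction, 71 with normexp on that median signal and 257 with array weights. The study threshold, a fold change above 1.5 with an unadjusted p below 0.05, was passed by 1019 circRNAs (7.29%), of which 559 were higher and 460 lower on the saline arrays (681 and 399 when arrays were scaled to their 75th percentile, 365 and 370 with slide row as a block). Slide row is not separate from slide, as row 2 held only slide 1 arrays (saline 2, saline 3, sucrose 1 and sucrose 2). Differences beyond 2-fold were found for 159 of the 1019, 94 higher and 65 lower. Over all circRNAs tested, the median log2 difference was -0.01, the median size 0.23, and 48.9% were above 0, so neither group was shifted as a whole, as quantile normalization imposes. The labels give 1 rat per array, and the p-values measure the spread between rats as well as between arrays.

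**Figure D1:**
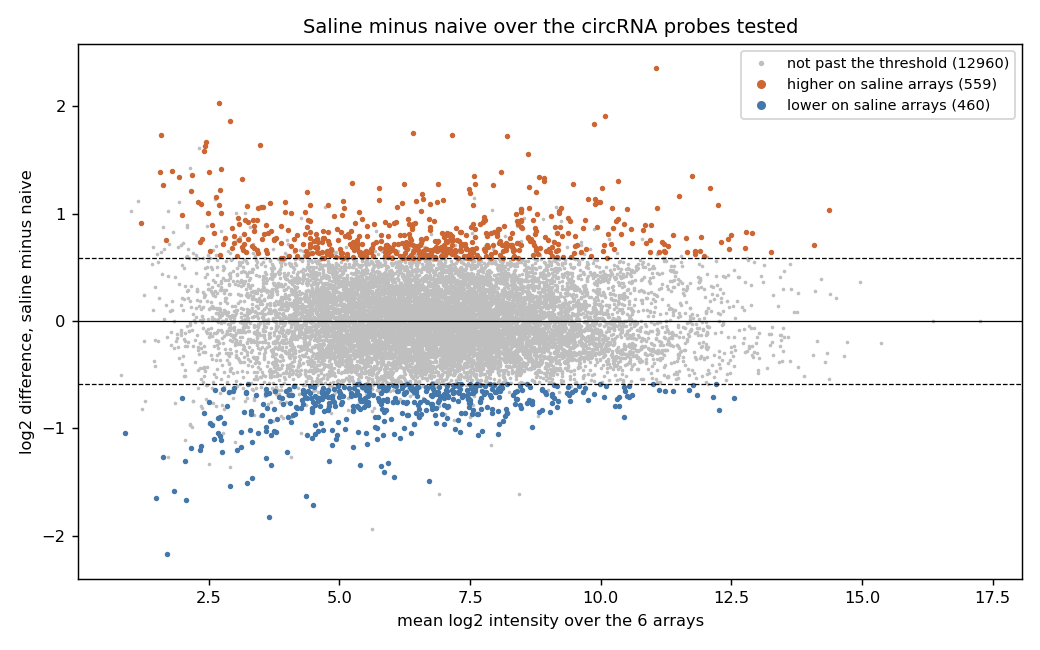
Log2 difference, saline minus naive, against the mean log2 intensity of the 6 arrays for the 13979 circRNAs tested. Coloured points are the 559 higher and 460 lower circRNAs past the study threshold, dashed lines mark a 1.5-fold difference, and the points lie on both sides of 0 at every intensity.

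The 6 arrays were close to each other. Across circRNAs, which are not independent replicates, pairs of saline arrays correlated at 0.979 to 0.982, pairs of naive arrays at 0.972 to 0.981, and pairs across the groups at 0.966 to 0.974. Every saline array lay on one side of every naive array for 3735 circRNAs (26.7%), and for 883 of the 1019 past the threshold (6.32% of all tested). Of these 883, 810 were well above background on all 6 arrays, 449 higher and 361 lower on saline. Among circRNAs in the brightest quintile, 133 were higher and 56 lower past the threshold, while in the dimmest quintile the counts were 138 and 148. The dimmest quintile had the largest share past the threshold, 10.2%, against 5.97% to 6.91% in the others.

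Among circRNAs past the threshold that were well above background on all 6 arrays and did not overlap, the 10 leading differences in each direction ran from 2.55-fold to 5.11-fold higher and from 2.46-fold to 3.55-fold lower on saline. Values are normalized log2 intensities. Probe ASCRPR008720 read 8.98, 8.92 and 9.28 on the saline arrays and 7.63, 6.95 and 7.44 on the naive arrays, a 3.29-fold higher level on saline (log2 difference 1.72, SE 0.30, limma adjusted p = 0.0714). All 3 heroin arrays, at 9.27 to 9.51, and sucrose 1 and sucrose 2, at 8.79 and 8.68, sat with the saline arrays, and sucrose 3, at 7.5, sat with the naive arrays with which it shared a slide. ASCRPR004230 had the same layout, with 6.94, 7.40 and 7.51 on saline against 4.95, 5.73 and 5.93 on naive (log2 difference 1.75, SE 0.41), and sucrose 3 at 5.55 apart from sucrose 1 and 2 at 7.34 and 7.23. With slide as a fixed block, estimated from the sucrose arrays alone, the difference was 0.48 for ASCRPR008720 and 0.0153 for ASCRPR004230.

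A second layout set the naive arrays apart from the 9 others, sucrose 3 included. ASCRPR000291 read 8.40, 8.36 and 7.98 on saline and 6.40, 7.24 and 7.06 on naive, 2.55-fold higher on saline (log2 difference 1.35, SE 0.22, limma adjusted p = 0.0714). The heroin arrays lay at 7.75 to 8.18 and the sucrose arrays at 7.42 to 7.76, above the highest naive array in each case. In the opposite direction, ASCRPR002415 read 5.51, 4.83 and 5.61 on saline and 6.85, 6.81 and 6.64 on naive, 2.73-fold lower on saline (log2 difference -1.45, SE 0.24, limma adjusted p = 0.0714). No heroin or sucrose array reached the naive range, and the highest of them was heroin 3 at 6.28. For both circRNAs, then, sucrose 3 stood with slide 1 and not with the naive arrays of its own slide. With slide as a fixed block, the difference was 1.41 for ASCRPR000291 and -1.25 for ASCRPR002415.

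The other 7 of the 10 leading circRNAs higher on saline had standard errors from 0.31 to 0.97. ASCRPR010929 was 3.56-fold higher on saline (log2 difference 1.83, SE 0.47), with 10.52 to 11.20 on saline, but naive 3, at 10.18, stood far above naive 1 and naive 2, at 8.56 and 8.13. ASCRPR005270 (log2 difference 1.91), ASCRPR008249 (1.56), ASCRPR008977 (1.39) and ASCRPR010928 (1.35) had naive 3 as their highest naive array as well, at 9.99, 8.97, 8.01 and 11.48. ASCRPR012407 was higher by 1.73 (SE 0.55), with sucrose 3 at 6.16 among the naive arrays, and with slide as a fixed block ASCRPR012407 and ASCRPR008977 turned negative (-0.59 and -0.66) while ASCRPR005270, ASCRPR010929, ASCRPR008249 and ASCRPR010928 were at 0.62, 0.74, 0.61 and 0.18. The highest difference of all, 2.35 for ASCRPR004447, had an SE of 0.97 and rested on saline 2: the 3 saline arrays read 11.14, 14.09 and 11.46, heroin 1 and sucrose 3 were also near 14 (14.35 and 13.70), and without saline 2 the difference was 1.42. With slide as a fixed block its difference was 5.40, as sucrose 3 stood far above sucrose 1 and sucrose 2, at 10.91 and 10.40.

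Among the 10 leading circRNAs lower on saline, ASCRPR011386 was lowest on saline relative to naive (log2 difference -1.83, SE 0.51), with 2.54, 2.24 and 3.45 on saline and 4.81, 4.21 and 4.70 on naive, and sucrose 3, at 5.20, was above every array of slide 1 (-0.0915 with slide as a fixed block). ASCRPR009520 (-1.63, SE 0.54) went the other way within slide 2: naive arrays read 4.77 to 5.53 and sucrose 3 only 3.38, inside the saline range of 3.24 to 3.77. ASCRPR003607 (-1.49), ASCRPR003988 (-1.40), ASCRPR003233 (-1.35), ASCRPR002728 (-1.34), ASCRPR003802 (-1.32) and ASCRPR000867 (-1.30) had limma adjusted p-values between 0.0821 and 0.200. Of these, ASCRPR000867 had naive arrays at 5.24 to 5.55 above all 9 others, the highest of which was heroin 2 at 4.80. The remaining one was a circRNA of Exoc6, described below.

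A further 7 of the 13979 circRNAs tested were past the threshold and well above background on 3 of 3 saline and 0 of 3 naive arrays, and 0 showed the reverse. Naive 1 had the lowest share of probes well above background of all arrays, 95.7%. The part of array brightness in this count was not tested. For these only a bound can be given, the saline mean against the dimmest signals called well above background on the naive arrays. ASCRPR013178 was at least 2.44-fold higher on saline, ASCRPR001237 at least 1.76-fold and ASCRPR002441 at least 1.72-fold. Their limma adjusted p-values (0.0714, 0.0714 and 0.0981) rest on naive readings not called well above background. As the circRNAs were also picked for this pattern, the p-values add no support. ASCRPR002441, at 3.14, 3.22 and 3.26, was also above every heroin and sucrose array, the highest of which was 2.60. For ASCRPR013178, sucrose 3, at 2.55, lay between the naive arrays (1.09 to 2.10) and the heroin arrays (3.10 to 3.63).

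**Figure D2:**
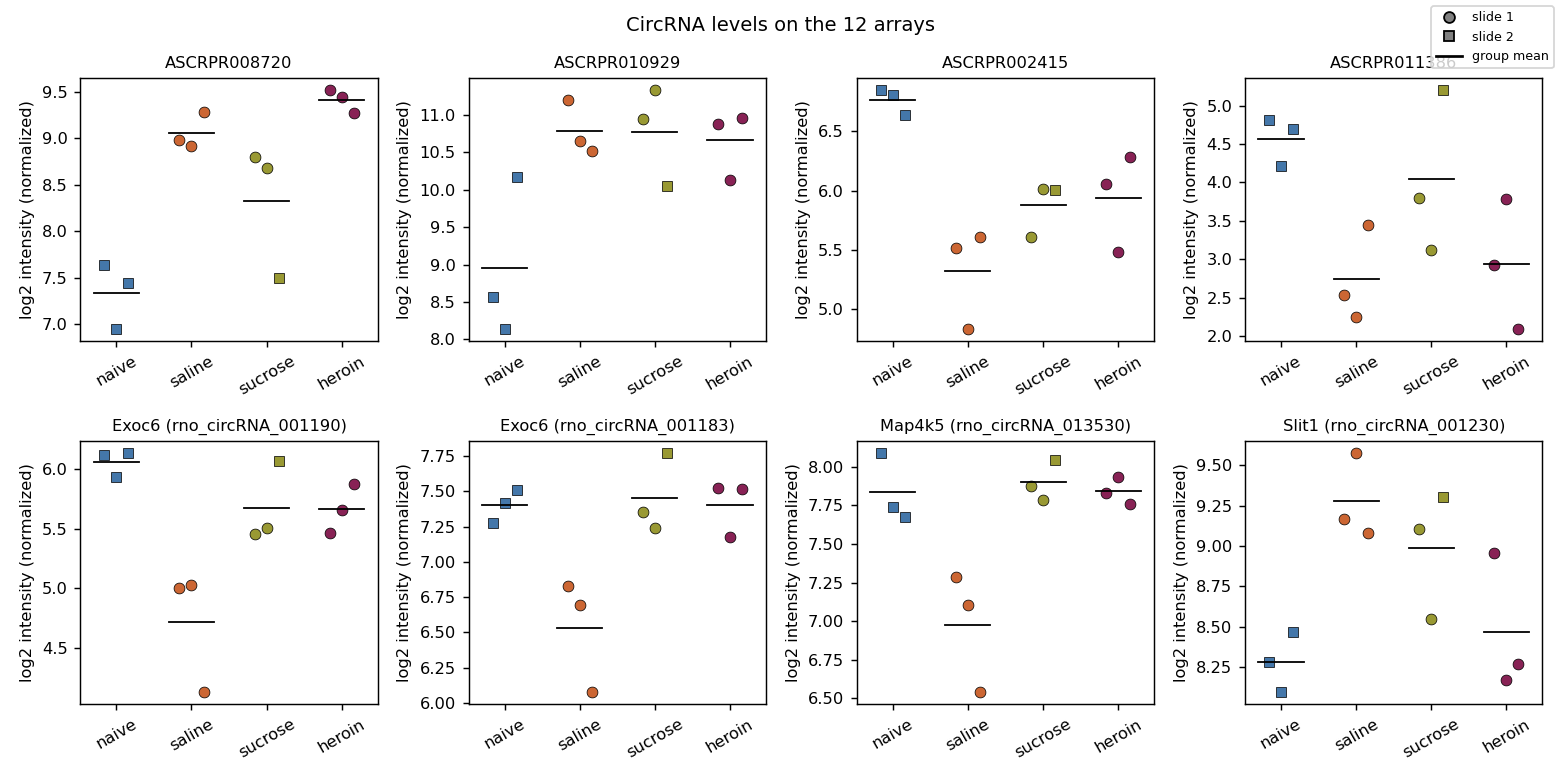
Normalized log2 intensity of 8 circRNAs on each of the 12 arrays, by group, with circles for slide 1, squares for slide 2 and a line at each group mean. Sucrose 3 lies with the naive arrays for ASCRPR008720 and ASCRPR011386 and away from them for ASCRPR002415, and the saline arrays are the lowest of all for both Exoc6 circRNAs and for Map4k5.

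Where the other 6 arrays fell was counted over all circRNAs. Slide 2 (naive and sucrose 3) did not overlap slide 1 for 1041 of 13979 circRNAs tested (7.45%) and for 342 of the 1019 (33.6%), of which 266 were lower and 76 higher on slide 2. The naive arrays alone stood apart from the other 9 for 505 (3.61%) and for 182 of the 1019 (17.9%), and the saline arrays alone for 296 (2.12%) and for 91 of the 1019 (8.93%), 48 of these higher and 43 lower on saline. Membership of the 1019 required the saline and naive arrays to differ, so these shares are a description and carry no test. At 491 of the 1019, none of the 3 layouts held. In 121 of the 182, sucrose 3 did not stand beyond slide 1 with the naive arrays, so that slide 2 as a whole was not apart.

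Sucrose 3 was the only array of slide 2 that was not naive, and the sucrose rats, like the naive rats, had no surgery. Among the 1019, sucrose 3 lay nearer the naive than the saline mean at 72.5%, against 36.1% for sucrose 1 and 33.1% for sucrose 2, which were on slide 1, and 26.2% to 31.3% for the 3 heroin arrays. Over all circRNAs tested, sucrose 3 was again the highest, at 62.8%, with 41.8% for sucrose 1, 41.7% for sucrose 2 and 39.2% to 44.2% for heroin. In both sets, sucrose 3 lay mostly on the naive side, and sucrose 1 and sucrose 2 mostly on the saline side. With 1 sucrose array on slide 2, slide and the single rat cannot be told apart. The cause was not tested.

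**Figure D3:**
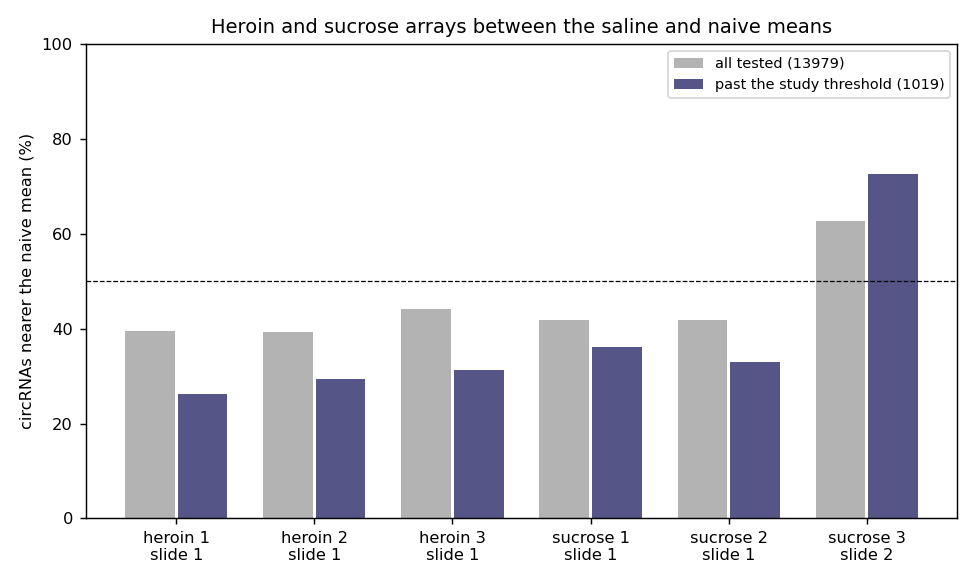
Percent of circRNAs at which each heroin or sucrose array lay nearer the naive than the saline mean, for all circRNAs tested and for those past the study threshold, with the slide of each array and a dashed line at 50%. Sucrose 3, on slide 2, is the array above 50% in both sets, at 62.8% and 72.5%.

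When slide entered the fit as a random block (correlation between arrays of a slide 0.185), 553 circRNAs passed the threshold, 501 of them among the 1019. With slide as a fixed block, which rests on sucrose 3 alone, 724 passed, but only 157 of these were among the 1019. Neither fit gave a circRNA with an adjusted p below 0.05 (limma), and at an unadjusted p below 0.05 they gave 968 and 766.

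The array measures differed in part along the same line. Mean local background was 16.2, 16.8 and 16.0 intensity units on the saline arrays and 14.8, 15.2 and 14.9 on the naive arrays, and sucrose 3, at 15.0, was also below every array of slide 1 (exact permutation test, two-sided, p = 0.1, the smallest that 3 against 3 allows). Median circRNA intensity overlapped between the groups, at 115, 136 and 88.2 on saline and 70.1, 114 and 108 on naive (exact permutation p = 0.4). The share of circRNA probes well above background, 96.7% to 98.6% on saline and 95.7% to 97.8% on naive, also overlapped (exact permutation p = 0.4). Bright corner control spots did not overlap, at 42872 to 53436 intensity units on saline and 26590 to 36581 on naive (exact permutation p = 0.1). Heroin arrays, on slide 1, read 27077 to 39361, so for these spots the slides were not apart. Relative to the median circRNA probe of the same array, the log2 levels of these spots overlapped between the groups. They were 8.70, 8.50 and 8.90 on saline and 8.51, 8.31 and 8.03 on naive.

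Among 23 control probes of the array maker that were well above background on all 6 arrays, 8 were higher on every saline than on every naive array and 0 were lower (26.7% of all circRNAs tested did not overlap). In the group means, 6 of the 23 were over 1.5-fold higher on saline, where 1302 of 13979 circRNAs tested differed by over 1.5-fold in either direction. Of these control probes, (+)eQC-40 and ETG05_36762 overlapped between the groups. Control probe values are log2 levels relative to the median circRNA probe of the same array. (+)E1A_r60_n11 read -1.85, -1.44 and -1.52 on saline and -2.66, -2.28 and -2.47 on naive, with sucrose 3 at -2.62. For 4 of the 23 control probes, slide 2 was below all of slide 1, and for 0 it was above. Over all circRNAs tested, slide 2 did not overlap slide 1 for 7.45%. The part of these slide-related levels in the circRNA differences was not tested.

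**Figure D4:**
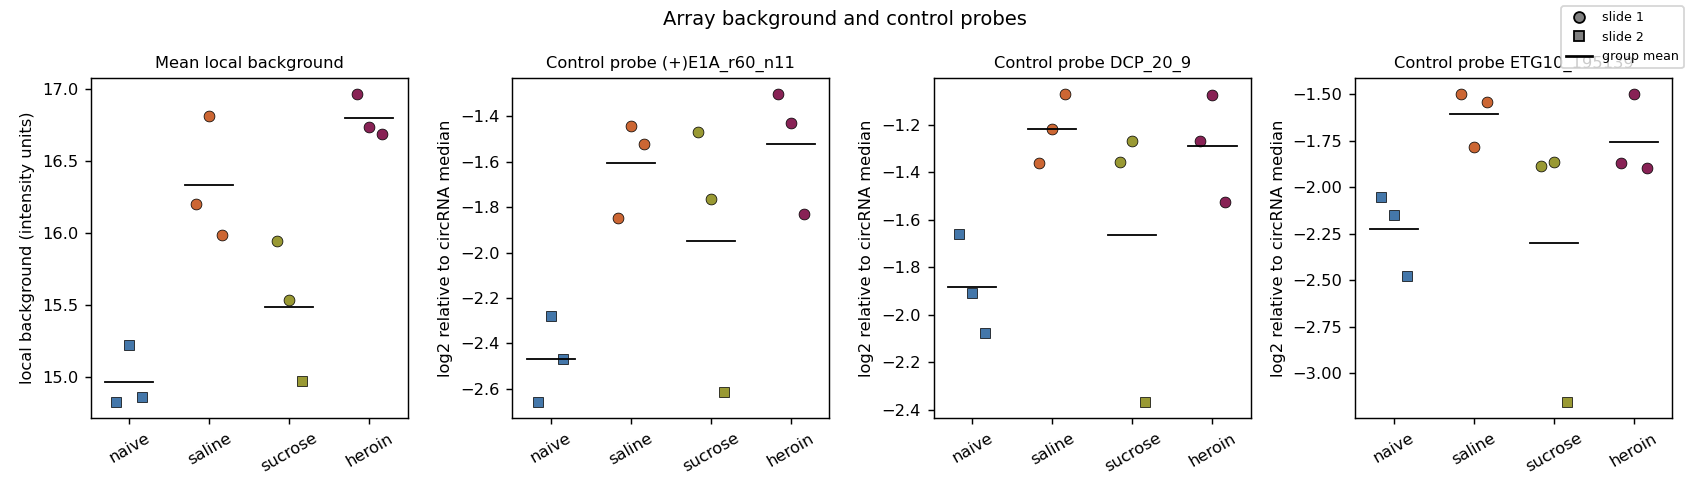
Mean local background in intensity units and 3 control probes as log2 level relative to the array's median circRNA probe, for each array by group, with circles for slide 1, squares for slide 2 and a line at each group mean. The naive arrays and sucrose 3 are below all arrays of slide 1 in each panel. The control probes shown were taken from the 4 of 23 with this layout.

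Probes for linear transcripts served as a further reference. Whether their signal after RNase R came from linear RNA was not tested. Of 62 such probes, 36 were well above background on all 6 arrays. Their median, relative to the median circRNA probe, was -1.16, -1.14 and -1.17 on saline and -1.08, -1.33 and -1.22 on naive, which overlap (mean -1.16 ± 0.01 against -1.21 ± 0.12, SD, n = 3 each, exact permutation p = 0.6). Dlg4, the postsynaptic scaffold PSD-95, read 5.12 to 5.60 on saline and 5.05 to 5.42 on naive, and Map2, a dendritic microtubule protein, read 1.00 to 1.82 and 1.01 to 1.62. Both were present and overlapped between the groups, but no set of neuronal transcripts was counted. Of the 36 probes, 10 were higher and 2 lower on every saline array (33.3% not overlapping, where 26.7% of all circRNAs tested did not overlap). Ppp2r2b, a regulatory subunit of protein phosphatase 2A, read -1.49, -2.05 and -1.80 on saline and -2.61, -2.53 and -2.80 on naive, with sucrose 3 at -2.39 below the whole of slide 1. The 2 probes for Ldha, lactate dehydrogenase A, went in opposite directions, higher by 0.40 for one and lower by 0.73 for the other.

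In the authors' own deposited log2 values, which track the intensities before background subtraction, 14 of the 13979 circRNAs had an adjusted p below 0.05 (limma, 0.0381 to 0.0465), 10 higher and 4 lower on saline. They were singled out after their values were seen. In the values from the scanner files all 14 passed the study threshold without overlap, and their limma adjusted p-values ran from 0.0714 to 0.0913. ASCRPR010217 had narrow groups, at 8.15, 8.25 and 8.28 on saline against 6.98, 6.91 and 6.94 on naive (log2 difference 1.28, SE 0.20), with sucrose 3 at 7.15 next to the naive arrays. ASCRPR005881 read 8.05, 8.21 and 8.01 on saline and 6.92, 6.71 and 6.95 on naive (1.22, SE 0.18), with sucrose 3 at 7.90 away from them. ASCRPR011459 read 9.90, 9.93 and 10.15 on saline and 11.05, 10.74 and 10.87 on naive (-0.89, SE 0.14), and there the heroin and sucrose arrays, 10.19 to 10.44, fell between the groups.

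The remaining circRNAs of the 14 were ASCRPR000291, ASCRPR002415 and ASCRPR008720, described above, and ASCRPR002923, ASCRPR005415, ASCRPR005963, ASCRPR011465, ASCRPR012231, ASCRPR012662, ASCRPR012975 and ASCRPR013742. ASCRPR013742 was higher on saline by 1.24 (10.40 to 10.77 against 9.31 to 9.47), with sucrose 3 at 9.32, and ASCRPR012975 by 1.27 (7.42 to 7.59 against 6.14 to 6.41), with sucrose 3 at 6.11. In both, sucrose 3 was at or next to the naive range. Fitted with slide as a fixed block, the differences were 0.45 for ASCRPR010217, 0.42 for ASCRPR013742, 0.21 for ASCRPR012975, 1.54 for ASCRPR005881 and -0.85 for ASCRPR011459.

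Of the 75 listed circRNAs, 70 of them with a host gene, 22 passed the study threshold between saline and naive (29.3%, where 7.29% of all circRNAs tested did), 9 higher and 13 lower on saline. Their median size of difference was 0.39, against 0.23 over all tested. The study chose these 75 for a difference between heroin and saline, and that comparison shares the saline arrays, so an unusual level on the saline arrays moves both and the share is no independent evidence. In 11 of the 75 the saline arrays stood apart from the other 9 (2.12% of all tested did), 5 higher and 6 lower, and in 23 the heroin arrays did (2.02% of all tested), 7 higher and 16 lower. The positions below are those of the study's list, and the sources used here do not name their genome build.

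**Figure D5:**
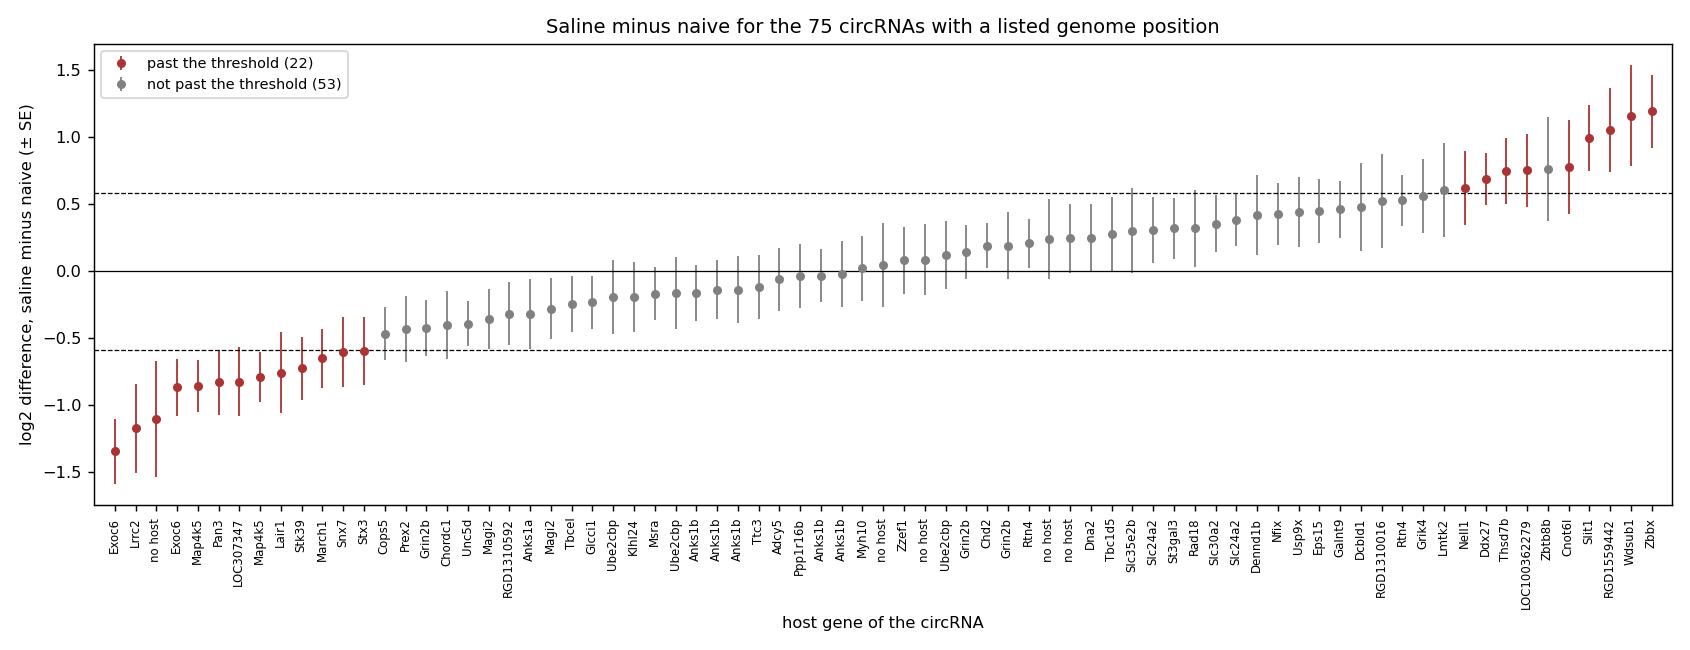
Log2 difference, saline minus naive, with its SE, for the 75 circRNAs with a listed genome position, in ascending order and labelled by host gene. Red points are the 22 past the study threshold, dashed lines mark a 1.5-fold difference, and both circRNAs of Exoc6 and of Map4k5 are on the lower end while the 5 of Anks1b lie near 0.

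Both circRNAs of Exoc6 were lower on saline. Exoc6 encodes a subunit of the exocyst, the complex that tethers secretory vesicles to the plasma membrane. Its circRNA rno_circRNA_001190 (chr1:263781860-263819781, plus strand, exonic) read 5.0, 5.02 and 4.13 on saline and 6.12, 5.93 and 6.13 on naive, 2.54-fold lower on saline (log2 difference -1.34, SE 0.24, limma adjusted p = 0.0812). Its second circRNA, rno_circRNA_001183 (chr1:263746174-263770560), read 6.83, 6.69 and 6.08 on saline and 7.27, 7.42 and 7.51 on naive (-0.87, SE 0.21, limma adjusted p = 0.113). The 2 loops do not overlap in position, and their probes, printed above, are distinct. In both, the saline arrays were the lowest of 12, with heroin at 5.47 to 5.88 and 7.17 to 7.52 and sucrose at 5.46 to 6.07 and 7.24 to 7.77, and saline 3 was the lowest saline array. For rno_circRNA_001190, slide 2 (5.93 to 6.13 with sucrose 3) was also above all of slide 1. Stx3, a SNARE protein of membrane fusion (log2 difference -0.59), and Snx7, a sorting nexin (-0.60), were lower on saline past the threshold but with overlapping arrays. Leaving out naive 2 brought the Stx3 difference to -0.33. Other listed hosts with roles in membrane traffic, named after their values were seen, had positive differences that did not pass the threshold: 0.45 (SE 0.24) for Eps15, an endocytic adaptor, 0.42 (SE 0.30) for Dennd1b, a Rab exchange factor, and 0.28 (SE 0.28) for Tbc1d5, a Rab GTPase-activating protein.

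CircRNAs of 2 kinase genes, Map4k5 and Stk39, were also lower on saline past the threshold. Those of Map4k5, a kinase upstream of JNK signalling, were rno_circRNA_013530 (chr6:101622689-101630877) and rno_circRNA_013531 (chr6:101626614-101630877), on the minus strand, which share 1 boundary. The first read 7.29, 7.11 and 6.54 on saline and 8.09, 7.74 and 7.68 on naive (-0.86, SE 0.20, limma adjusted p = 0.101), and the second 6.5, 6.63 and 6.00 against 7.33, 7.17 and 6.99 (-0.79, SE 0.19). As these probes share bases and a splice boundary, they are not independent readings. All 9 heroin, sucrose and naive arrays were above the saline arrays in both. The circRNA of Stk39, a kinase that regulates cation-chloride cotransporters, read 6.98 to 7.19 on saline and 7.59 to 8.15 on naive (-0.72, SE 0.24), but sucrose 2, at 7.0, was within the saline range.

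Of the RNA-processing genes, Ddx27, an RNA helicase, had a circRNA higher on saline by 0.69 (SE 0.19), at 8.38, 8.75 and 8.80 against 8.14, 7.91 and 7.81. The circRNAs of 2 deadenylase components differed in opposite directions. That of Cnot6l, a catalytic subunit of the CCR4-NOT complex, was higher on saline by 0.78 (SE 0.35), at 11.98 to 12.67 against 10.91 to 11.88, and that of Pan3, of the PAN2-PAN3 complex, was lower by 0.83 (SE 0.24), at 8.04 to 9.0 against 8.98 to 9.60, with saline 2 just above naive 2. The Cnot6l difference rested in part on naive 3 and was 0.46 without it.

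Naive 3 was the lowest naive array in a set of bright circRNAs that were higher on saline. For RGD1559442 (log2 difference 1.05, SE 0.31), saline read 11.55 to 11.68 and naive 10.81, 10.95 and 9.90. For Wdsub1, a protein with WD repeats and a U-box (1.16, SE 0.38), naive read 11.19, 11.39 and 10.19, for Nell1, a secreted glycoprotein (0.62, SE 0.28), 11.77, 11.85 and 10.84, and for LOC100362279 (0.75, SE 0.27), 10.99, 10.89 and 9.82. Without naive 3 the differences were 0.73, 0.80, 0.30 and 0.38, the last pair below the 1.5-fold bound. In RGD1559442, Nell1 and LOC100362279 the saline arrays were still above all 9 others.

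Slit1, a secreted ligand of axon guidance receptors, had the largest difference among the 10 circRNAs that the study took to qPCR. Its circRNA (chr1:268337164-268337547, minus strand) read 9.17, 9.58 and 9.08 on saline and 8.28, 8.09 and 8.47 on naive, 1.99-fold higher on saline (log2 difference 0.99, SE 0.25, limma adjusted p = 0.116). Heroin arrays spanned 8.17 to 8.96, down to the naive level, and sucrose arrays 8.55 to 9.30, up to the saline level. Zbbx had the highest difference of the 75 (1.19, SE 0.27), at 7.89, 8.12 and 8.27 against 6.95, 7.09 and 6.67, and sucrose 3, at 6.89, fell among the naive arrays while sucrose 1 and 2 read 7.94 and 8.14. The Zbbx difference was 0.0417 with slide as a fixed block.

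The remaining circRNAs past the threshold followed several layouts. Thsd7b was higher on saline (0.75, SE 0.25), with its saline arrays, 5.03 to 5.28, above all 9 others. LOC307347 was lower (-0.82, SE 0.26), with saline at 4.69 to 5.26 below all 9 others. Lrrc2 was lower (-1.17, SE 0.33), at 4.10 to 5.15 against 5.68 to 6.11, and its sucrose 1 and 2, at 4.54 and 4.29, were as low as saline. March1, a membrane ubiquitin ligase (-0.65), and Lair1, an inhibitory collagen receptor of immune cells (-0.76), were lower without overlap. Without saline 1 the March1 difference was -0.43, and without naive 1 that of Lair1 was -0.49. The intergenic rno_circRNA_006606 (-1.10, SE 0.43) overlapped and was -0.63 without naive 3. With slide as a fixed block, the differences fell to sizes of at most 0.26 for Lrrc2 (-0.26), RGD1559442 (0.23), Wdsub1 (0.18), Cnot6l (0.10), Ddx27 (0.0972) and Stk39 (-0.0564), and changed sign for Lair1 (0.0427), Snx7 (0.14) and rno_circRNA_006606 (0.0796). They kept their sign but fell below 1.5-fold for the second circRNAs of Exoc6 (rno_circRNA_001183, -0.39) and Map4k5 (rno_circRNA_013531, -0.53). The same held for March1 (-0.29), Nell1 (0.32) and LOC100362279 (0.40). Differences stayed over 1.5-fold for Slit1 (1.47), Pan3 (-1.25), Thsd7b (1.01), Exoc6 rno_circRNA_001190 (-0.76), LOC307347 (-0.70), Map4k5 rno_circRNA_013530 (-0.65) and Stx3 (-0.59).

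Of the listed host genes with more than 1 circRNA, Exoc6 and Map4k5 had members past the threshold, and Anks1b, Grin2b, Magi2, Ube2cbp, Slc24a2 and Rtn4 had none. The 5 circRNAs of Anks1b, a postsynaptic scaffold, differed by -0.16 to -0.02, and 0 passed the threshold. The 3 of Grin2b, the GluN2B subunit of the NMDA receptor, differed by -0.42 to 0.19. The one taken to qPCR, rno_circRNA_011731, read 9.04, 9.81 and 9.63 on saline and 9.99, 9.83 and 9.92 on naive (-0.42, SE 0.21, limma adjusted p = 0.33), and without saline 1 the difference was -0.19. The 2 of Magi2, a scaffold of synaptic junctions, differed by -0.36 and -0.28 (-0.19 and -0.15 without naive 3), and the 3 of Ube2cbp, a ubiquitin ligase, by -0.19 to 0.12. The 2 of Slc24a2, a sodium-calcium-potassium exchanger of neurons, differed by 0.39 and 0.31, and the latter, rno_circRNA_012366, by 0.0571 without naive 1. The circRNA of Grik4, a kainate receptor subunit also named after its value was seen, differed by 0.56 (SE 0.28) and did not pass. A p above the threshold does not show that the groups were equal, and the median SE of a log2 difference over all circRNAs tested was 0.20.

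The remaining members of the qPCR set did not pass the threshold. Anks1a differed by -0.32 (SE 0.26), Prex2, a Rac exchange factor, by -0.43 (SE 0.25, and -0.22 without naive 3), Adcy5, an adenylate cyclase, by -0.06 (SE 0.23), and Lmtk2, a membrane-bound kinase, by 0.60 (SE 0.35). Lmtk2 exceeded 1.5-fold, but naive 3, at 12.27, was above all saline arrays (11.62 to 11.95), and without naive 1 the difference was 0.27. The Rtn4 circRNAs, from the gene of the myelin-associated growth inhibitor Nogo, share a start at position 113804892 of chromosome 14. The shorter, rno_circRNA_004644, differed by 0.21 (SE 0.18). The longer, mmu_circRNA_23123, differed by 0.53 (SE 0.19, limma adjusted p = 0.22, and 0.34 without naive 3), and its saline arrays, 10.69 to 10.93, lay above all 9 others.

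As to how the choice of control bears on these circRNAs, the 2 comparisons that use the saline arrays are set side by side; they share those arrays, so opposite signs are built in wherever the saline level is unusual. For Exoc6 rno_circRNA_001190, saline minus naive was -1.34 and heroin minus saline 0.95. For Map4k5 rno_circRNA_013530 the values were -0.86 and 0.86, and for Slit1 0.99 and -0.81. For Grin2b rno_circRNA_011731 they were -0.42 and -0.81, and for Anks1b rno_circRNA_015182 -0.16 and -0.99. In the first 3, naive and heroin arrays were on the same side of saline, and in Grin2b and Anks1b the heroin arrays, at 8.51 to 9.0 and 8.52 to 9.06, were below the arrays of all other groups.

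Over the 75 probes, features of the probe itself overlapped between the 22 and the other 53. Their GC content was 36.7% to 56.7% with a median of 45.0%, against 28.3% to 61.7% with a median of 43.3% in the 53. Of the 22, 15 were exonic, and of all 75, 56 were.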

How the data were processed

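RNA from OFC punches of 12 rats, 1 per array, was digested with RNase R, amplified with random primers, labelled with Cy3 and hybridized by a service company. The authors deposited scanner intensities per spot from Agilent Feature Extraction 11.0.1.1, and a table of log2 values that they had quantile normalized with limma, whose background correction is not stated. Its columns correlated more closely with the unsubtracted than with the background-subtracted scanner signals.

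Groups came from the sample labels. From the scanner files, log2 of the background-subtracted processed signal was taken, 9 spots flagged as outliers were left out, and arrays were quantile normalized together. Probes well above background on fewer than 3 of 12 arrays were removed. Group means were fitted with limma 3.58.1 in R 4.3.3, with Benjamini-Hochberg adjustment over all circRNAs tested, and the script was checked on simulated data. Control probes and linear transcripts were taken relative to the circRNA median of each array, and single array measures in intensity units or percent. Array measures and the per-array medians of the linear transcripts were compared by exact permutation tests. For probes below background in a group, bounds used the lowest signal called well above background. Precision is limited by the 3 arrays per group.

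The circRNAs described were the 10 with the largest differences in each direction among those past the threshold, without overlap and above background on all 6 arrays, the 3 with the largest bounds, the 10 taken to qPCR, and the listed circRNAs that passed or whose host gene had more than 1. The comparison, members and lists were chosen with earlier results of these data known. Host genes were at hand for 70 of the 75 listed circRNAs, so no host gene list was counted over the others. Replicate numbers of saline and naive rats did not pair the arrays: deviations of same-numbered arrays correlated at 0.06, 0.02 and -0.03. Alternatives covered background, normalization, filter, slide, slide row, replicate block, array weights, intensity trend, the methods' t-test, the deposited values and leaving out each array.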

Additional observations from a re-analysis of the deposited data

How the results depend on the processing

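The count past the study threshold, 1019, became 550 with the median signal without background subtraction, 297 with normexp on it (64.3% higher on saline, against 54.9%), 516 with the deposited values and 407 with the methods' t-test on them. At an adjusted p below 0.05, limma gave 23, 71 and 14 in the first 3 settings and 257 with array weights, and the methods' t-test gave 1. At an unadjusted p, 2348 became 766 with slide as a fixed block, 968 with slide as a random block, which left 553 past the threshold, and 1239 with slide row as a block. Leaving out 1 array gave 975 to 1288 past the threshold, 1663 to 2239 at an unadjusted p, and 0 to 3 at an adjusted p, with 3 without saline 1 and 1 without naive 1. With the replicate number as a block, 1003 passed the threshold, 979 of them shared, 2094 an unadjusted p and 0 an adjusted p (limma), and the numbers are no pairing. The level of the linear transcript probes relative to the circRNA probes, saline vs naive, higher by 0.05 on saline, ranged from -0.00413 without naive 2 to 0.119 without naive 1.

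Of 1740 recomputed differences of 76 circRNAs, 1630 kept direction and side of the adjusted threshold, 77 passed it and 33 reversed. With slide as a fixed block these became -0.59 for ASCRPR012407, -0.66 for ASCRPR008977, 0.0427 for ASCRPR007620 (Lair1), 0.14 for ASCRPR013083 (Snx7), -0.32 for ASCRPR003712 (Ube2cbp) and 0.0796 for ASCRPR000946 (rno_circRNA_006606). For the 5 Anks1b circRNAs they were 0.50 for ASCRPR003072, 0.59 for ASCRPR001979, 0.66 for ASCRPR001464, 0.39 for ASCRPR011642 and 0.36 for ASCRPR001604. With slide as a random block, the log2 difference of ASCRPR003072 was 0.0911, the log2 difference of ASCRPR001979 0.12 and the log2 difference of ASCRPR001464 0.0498. With slide row, the values were 0.0674, 0.0695 and 0.0280 for these, 0.0163 for the log2 difference of ASCRPR011642, 0.0368 for the log2 difference of ASCRPR001604 and -0.0353 for the log2 difference of ASCRPR002835 (Grin2b). ASCRPR003072 was 0.0114 without background subtraction, 0.00802 with normexp and 0.00632 with the deposited values under both tests, and the log2 difference of ASCRPR003702 (Adcy5) was 0.0121 with array weights. Without 1 array, ASCRPR003702 ranged from -0.19 to 0.13, ASCRPR003072 from -0.146 to 0.0442 and ASCRPR001979 from -0.16 to 0.10. The cause was not tested. Dim probes and 3 arrays per group limit all values.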
